A study of Mus musculus with 6 samples.

Results

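ISG15 is a small protein with 2 ubiquitin-like folds that is joined to other proteins much as ubiquitin is. The 6 genes described here encode ISG15 and the enzymes that attach and remove it. They were taken by symbol (Isg15, Uba7, Ube2l6, Herc6, Usp18 and Trim25) from a table of 24062 genes, and each of the 6 symbols was present once. The rule that names them uses no measured value, but the set was chosen with earlier results of these data known. RNA-seq had been run on 3 Chx10-Cre Rb1/p107/Hells (TKO) and 3 Chx10-Cre Rb1/p107 (DKO) retinae of mice labelled C57BL/6 (C57BL/6N in the methods of the study) at postnatal day 21 (P21), one library a retina. Both groups carried the Cre, a floxed Rb1 gene and a germline loss of p107, and only the TKO mice also carried floxed alleles of Hells, a chromatin remodeler that is a target of the RB/E2F pathway. Chx10-Cre acts in a mosaic of retinal progenitor cells, so each retina also held cells that kept Rb1 and Hells, and microglia and blood vessels do not arise from these progenitors. No retina with intact Rb1 and p107 was among these libraries, so the levels below have no wild-type reference.

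ISG15 is made when type I interferon binds its receptor and a factor that contains STAT2 and IRF9 acts on interferon response elements near the start of the gene. UBA7 is the activating enzyme (E1) of ISG15, UBE2L6 its conjugating enzyme (E2), and HERC6 its main ligase (E3) in mouse cells. TRIM25 is a ubiquitin ligase of the RIG-I pathway that has also been described as an ISG15 ligase. USP18 removes ISG15 from proteins and, apart from that activity, binds the receptor chain IFNAR2 and dampens the interferon signal.

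Library totals were 10343907 to 12888233 counts in TKO and 12635061 to 14203098 in DKO retinae. They were scaled with edgeR's TMM method, and values called normalized counts below are counts on that common scale, listed in the order of replicates 1, 2 and 3. Of the 24062 genes, 16904 had a sum of at least 10 and were tested with edgeR's quasi-likelihood test. Hells had 60.8, 68.4 and 83.4 normalized counts in the TKO and 678, 523 and 395 in the DKO retinae, and was thus lower in each TKO library. These are counts over the whole gene, so they do not show the floxed exon itself, and the markers of dividing cells were also lower in TKO retinae (below). The summed level of the rod markers, given below, was high in all 6 libraries.

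Of the 6 genes, 5 were lower in TKO retinae with an adjusted p of at most 0.05, and none was higher. Among all genes tested, 9.2% were lower and 7.35% higher by that rule. The same 5 genes also passed the stricter rule of the study's methods, which also asks for a 2-fold change and a mean normalized count of 10. Of all genes 4.38% passed that rule in the lower and 1.97% in the higher direction. Isg15 changed most, followed by Usp18, Ube2l6, Uba7 and Herc6. Trim25 did not pass. These are whole retinae, so fewer cells of a type and less RNA per cell cannot be told apart. The median log2 fold change of the 6 genes was -1.30, and that of all genes tested was -0.011.

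**Figure D1:**
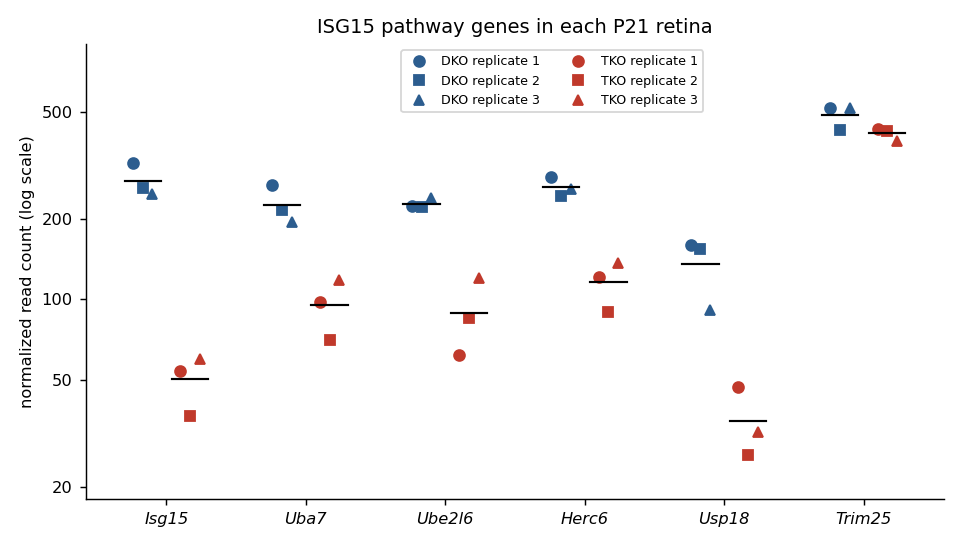
Normalized read count (log scale) of the 6 genes in each P21 retina, with DKO in blue, TKO in red, a symbol shape for each replicate number and a bar at each group mean. For 5 genes the 3 TKO retinae lie below the 3 DKO retinae, with Isg15 between 36.8 and 60.1 against 247 to 324, and for Trim25 the groups overlap.

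Isg15 lies on the minus strand of chromosome 4 of GRCm38, from 156199424 to 156200818, with 1 annotated transcript of 756 bases. Its raw counts were 47, 35 and 49 in TKO replicates 1, 2 and 3 and 344, 298 and 286 in DKO replicates 1, 2 and 3. On the normalized scale these were 53.9, 36.8 and 60.1 in TKO and 324, 260.9 and 247 in DKO retinae. The highest TKO retina was far below the lowest DKO retina. The group means were 50.3 ± 12.1 and 277 ± 40.9 normalized counts (SD, n = 3 each), or -2.47 as a log2 fold change (standard error, SE, 0.21, edgeR adjusted p = 0.00378). Ranked by p-value, Isg15 was number 8 of the 8657 genes whose fitted change was below 0.

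The interferon response element of the Isg15 promoter is shown because it is the best known feature of this gene's control. The 130 bases before the annotated start (RefSeq promoter table, GRCm38.p6, chr4:156200819-156200948, minus strand) are printed 5′ to 3′, with capitals for matches to either of 2 motifs, the long one being GAAA, any 2 bases and GAAA again and the short one AANNGAAA, on either strand.

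Isg15: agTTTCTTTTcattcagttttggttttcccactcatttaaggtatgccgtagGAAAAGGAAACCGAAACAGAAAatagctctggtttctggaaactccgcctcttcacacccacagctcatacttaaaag

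In this stretch 3 overlapping matches to the long motif form a tract of 22 bases, from position -78 to position -57 relative to the start. A window of 300 bases, from 250 before to 50 after the start, was searched on both strands for all promoters of the table. The long motif was found in 3.44% and AANNGAAA, which each long match contains, in 23.9% of 32851 promoters. Of the 6 genes, 5 had an entry in the table. The long motif was found in 1 of them, Isg15, and AANNGAAA in 3, namely Isg15, Uba7 and Trim25. Uba7 and Trim25 each had 1 match, on the opposite strand, at 27 and 4 bases before the RefSeq start. The GENCODE models, whose coordinates are given below, start 62 and 27 bases upstream of those RefSeq starts, so both matches lie inside them. The 30 bases around the matches (chr9:107975529-107975558 and chr11:88999388-88999417, both on the plus strand) are shown to set these single matches beside the Isg15 tract.

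Uba7: actcagtctagTTTCACTTttggtttcctg

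Trim25: ctcctgttcagTTTCGATTccttcctcgct

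Neither motif was found in the windows of Ube2l6 and Herc6. A match is a description of the letters and not evidence of binding. The genes with a match include Isg15, with the largest change, and Trim25, with the smallest.

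Uba7, the E1 enzyme, lies on the plus strand of chromosome 9 from 107975505 to 107984060. It had 97.5, 70.5 and 118 normalized counts in the TKO and 268, 216 and 194 in the DKO retinae. The groups did not overlap, with TKO replicate 3 the highest of its group and DKO replicate 3 the lowest of the other. The means of 95.3 ± 23.7 and 226 ± 38.0 (SD, n = 3 each) corresponded to a log2 fold change of -1.25 (SE 0.21, edgeR adjusted p = 0.00997).

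Ube2l6, the E2 enzyme, lies on the plus strand of chromosome 2 from 84798828 to 84810335. It had 61.9, 85.3 and 120 normalized counts in the TKO and 224, 221 and 239 in the DKO retinae. The DKO retinae were close together, with a coefficient of variation of 4.33%, while the TKO retinae spread over 32.9%. The log2 fold change was -1.36 (SE 0.22, edgeR adjusted p = 0.00883).

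Herc6, the E3 ligase, lies on the plus strand of chromosome 6 from 57581000 to 57664632. It had 122, 89.5 and 137 normalized counts in the TKO and 286, 243 and 259 in the DKO retinae. The groups were apart, and TKO replicate 2 was the lowest, as it was for Isg15 and Uba7. The log2 fold change was -1.18 (SE 0.18, edgeR adjusted p = 0.00733).

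Usp18, the protease that reverses the modification, lies on the plus strand of chromosome 6 from 121245906 to 121270917. It had 47.0, 26.3 and 31.9 normalized counts in the TKO and 160, 155 and 91.5 in the DKO retinae. DKO replicate 3 stood well below the other DKO retinae but was still above each TKO retina. The log2 fold change was -1.95 (SE 0.30, edgeR adjusted p = 0.0078), the second largest of the 6 and the one with the largest standard error, with counts as low as 25 in a library.

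Trim25 lies on the plus strand of chromosome 11 from 88999376 to 89020293. It had 433, 427 and 391 normalized counts in the TKO and 519, 431 and 520 in the DKO retinae. DKO replicate 2 lay within the range of the TKO retinae. The log2 fold change was -0.23 (SE 0.11, edgeR adjusted p = 0.175). When libraries were scaled by total counts alone, which took the all-gene median from -0.011 to -0.17, it was -0.39 (edgeR adjusted p = 0.0334).

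The 5 genes that passed were also those whose groups did not overlap, a property of 20.6% of all genes tested in the lower direction and of 38.6% in either direction. When each of the 6 retinae was left out in turn, the adjusted p of these genes from edgeR stayed at or below 0.0468. In the annotation Uba7, Herc6 and Usp18 overlap other gene models, and those of Herc6 and Usp18 include models on the opposite strand. The library kit keeps strand but the strand setting of the counting is not given in the sources used here, so reads of such models could be among their counts. Isg15, Ube2l6 and Trim25 overlap no other annotated gene.

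**Figure D2:**
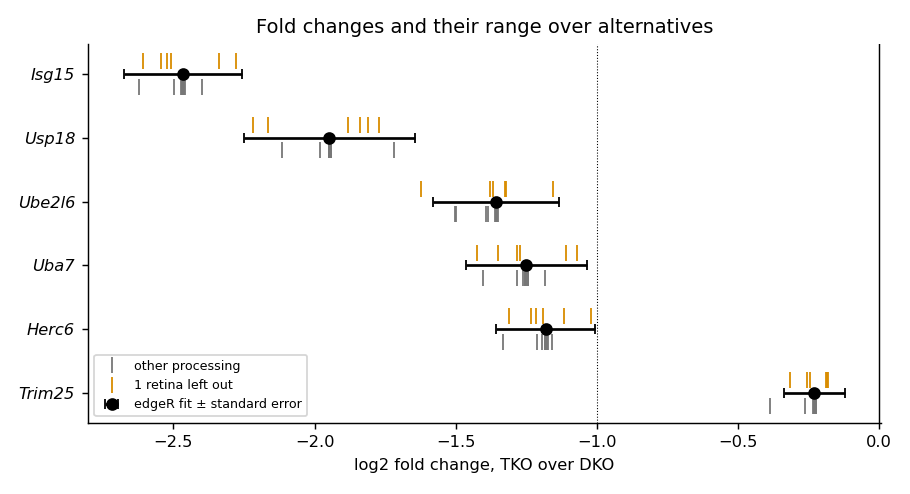
Log2 fold change of TKO over DKO for the 6 genes, with the edgeR fit and its standard error in black, the fits with 1 retina left out in orange and other processing in grey, and a dotted line at a fold change of 2. The orange marks of Isg15 run from -2.61 to -2.28 and those of Trim25 from -0.31 to -0.18, and no mark reaches 0.

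To compare levels between genes, CPM, counts as a share of the TMM-scaled library, were divided by the annotated exon length, and these levels are given in CPM per kilobase. In DKO retinae Isg15 was the most abundant of the 6, at 29.0 ± 4.28 (SD, n = 3). Ube2l6 followed at 9.03 ± 0.39 and Trim25 at 6.73 ± 0.70. Usp18 was at 3.84 ± 1.08, Uba7 at 2.67 ± 0.45 and Herc6 at 2.24 ± 0.18, and the single retinae of these last 3 neighbours overlapped. The exon lengths merge all annotated transcripts, which lowers the level of a gene with many of them, such as Uba7 with 15.

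The order was different in TKO retinae. Trim25, at 5.74 ± 0.31, and Isg15, at 5.26 ± 1.26 CPM per kilobase, overlapped at the top (SD, n = 3). Ube2l6 was at 3.53 ± 1.16, and its highest retina, at 4.76, was above the lowest of Isg15, at 3.85. Uba7, at 1.13 ± 0.28, Usp18, at 0.99 ± 0.30, and Herc6, at 0.99 ± 0.21, could not be ordered beyond their spread. Isg15 thus stood above each other gene of the set in DKO retinae and did not in TKO retinae.

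The ratio of 2 counts in the same library does not depend on how libraries are scaled, and 7 such ratios were compared. For each Isg15 read there were 1.81, 1.91 and 1.96 Uba7 reads in TKO and 0.83, 0.83 and 0.79 in DKO replicates 1, 2 and 3. These are ratios of reads and not of molecules, since Uba7 is the longer gene. The mean log2 ratio was 0.92 ± 0.06 for TKO against -0.30 ± 0.04 for DKO (SD, n = 3 each), a 2.32-fold difference in which no retina overlapped the other group. The exact permutation test (two-sided) gave p = 0.1, the smallest that 3 retinae against 3 allow, and 0.117 adjusted over the 7 ratios.

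Herc6 had 2.26, 2.43 and 2.29 reads for each Isg15 read in the TKO and 0.88, 0.93 and 1.05 in the DKO libraries, a 2.44-fold difference without overlap. Ube2l6 had 1.15, 2.31 and 2.00 against 0.69, 0.85 and 0.97 reads, a 2.11-fold difference without overlap that was small in TKO replicate 1. Trim25 had 8.04, 11.6 and 6.51 against 1.60, 1.65 and 2.10 reads, a 4.78-fold difference without overlap. The exact permutation p of these 3 was 0.1 as well (two-sided, 0.117 adjusted). The E1, E2 and E3 genes thus had more reads for each Isg15 read in each TKO than in each DKO library. This separation had the smallest p that the permutation test can give. Isg15 had the largest decrease of the set, so a gene that decreased less can show the same separation. Trim25, whose own change did not pass, had the largest difference, at 4.78-fold. The separation is therefore not particular to the E1, E2 and E3 genes, and its share among all genes was not computed.

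Usp18 was the exception, as its ratio to Isg15 did not separate the groups. It had 0.87, 0.71 and 0.53 reads for each Isg15 read in the TKO and 0.49, 0.59 and 0.37 in the DKO libraries. The groups overlapped, and the 1.45-fold difference had an exact permutation p of 0.2 (two-sided, 0.2 adjusted). This test could not have reached 0.05 at any size of difference.

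**Figure D3:**
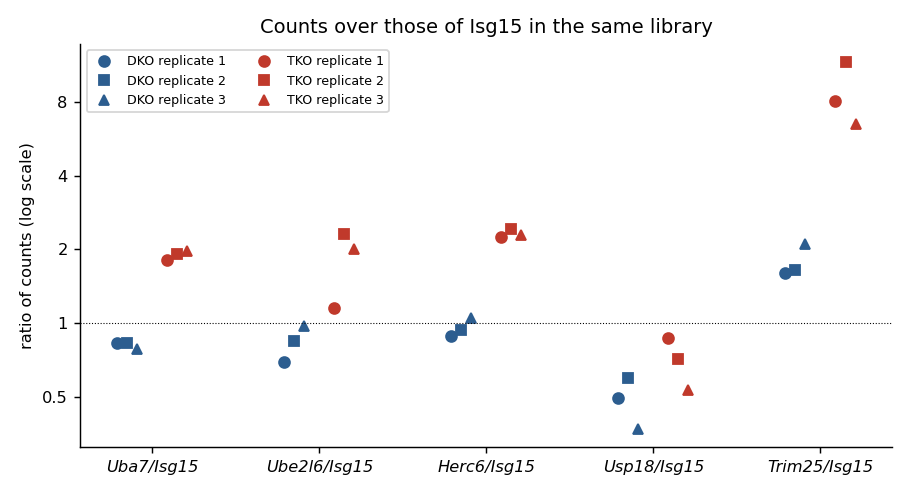
Ratio of the raw counts of 5 genes to those of Isg15 in the same library (log scale), with DKO in blue, TKO in red and a symbol shape for each replicate number. The ratios of Uba7, Ube2l6, Herc6 and Trim25 are higher in each TKO than in each DKO library, while those of Usp18 overlap, from 0.53 to 0.87 in TKO and 0.37 to 0.59 in DKO.

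UBE2L3 and UBA1 are the ubiquitin counterparts of UBE2L6 and UBA7. For each Ube2l3 read there were 0.035, 0.042 and 0.068 Ube2l6 reads in the TKO and 0.113, 0.107 and 0.121 in the DKO libraries, a 2.44-fold lower ratio in TKO. For each Uba1 read there were 0.016, 0.012 and 0.022 Uba7 reads in the TKO and 0.053, 0.045 and 0.037 in the DKO libraries, a 2.73-fold lower ratio. Neither pair overlapped between groups (exact permutation p = 0.1 each, two-sided, 0.117 adjusted). Ube2l3 itself was at -0.12 on the log2 scale (edgeR adjusted p = 0.352) and Uba1 of 0.19 (edgeR adjusted p = 0.194).

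The genes of other ubiquitin-like systems were read beside the ISG15 genes. The count of each list below is to be set beside the shares of all genes tested, 9.2% lower and 7.35% higher. Of 14 modifier genes, which encode ubiquitin, SUMO, NEDD8, UFM1 and others, 13 were tested. Sumo2 was lower (log2 fold change -0.36, edgeR adjusted p = 0.0421) and the other 12, up to 0.25 for Ubl5, did not pass. Ubb and Rps27a, which encode ubiquitin, had values of 0.050 and 0.085 and did not pass. Ubd, which encodes the interferon-inducible modifier FAT10, had too few counts to test. The median of the 13 genes was 0.050, and -0.10 with scaling by total counts alone. Of 9 E1 genes of other modifiers, Sae1, a subunit of the SUMO E1, was lower (-0.40, edgeR adjusted p = 0.0218) and 8, up to 0.22 for Mocs3, did not pass, with a median of 0.011 that became -0.15 with total counts alone. Leaving out replicate 1 or 2 of either group ended both calls (edgeR adjusted p from 0.0742 to 0.15), and that of Sumo2 also without TKO replicate 3 (0.069).

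Of 31 E2 genes of other modifiers, 3 were lower and 1 higher, and 27 did not pass. The share of lower genes was near the 9.2% of all genes tested, and that of higher genes was below their 7.35%. The 3 lower genes were Ube2c (log2 fold change -2.65), Ube2t (-1.66) and Ube2s (-0.82) (edgeR adjusted p = 0.0105, 0.0379 and 0.00752). UBE2C and UBE2S act with the anaphase-promoting complex in mitosis and UBE2T in the Fanconi pathway of DNA repair. Ube2h was higher (0.35, edgeR adjusted p = 0.0313). Ube2t was above 0.05 when replicate 1 or 2 of either group was left out (at most 0.126), Ube2c without TKO replicate 2 (0.0532), and Ube2h in each leave-one-out fit but that without TKO replicate 3 (at most 0.119). The more abundant E2 genes Ube2v1 (0.059), Ube2n (-0.055) and Ube2d2a (-0.13) did not pass. The median of the list was -0.055.

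Herc6 differed from its relatives in direction. Herc3 changed by 1.00 on the log2 scale (edgeR adjusted p = 0.00905) and Herc4 of 0.53 (edgeR adjusted p = 0.0167), both higher in TKO retinae. Herc1 and Herc2, at 0.27 and 0.33, did not pass. The median of these 4 genes was 0.43, and 0.27 with total counts alone. With replicate 1 or 2 of either group left out, Herc4 had an adjusted p between 0.0569 and 0.0766 from edgeR.

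A list of 13 genes held ISG15 readers and ligases or proteases tied to the pathway or related to its enzymes. Herc3 and Herc4, described above, were among them. Of these, 4 were lower, 4 higher and 5 did not pass, and their median was -0.058. Itgal, which encodes a chain of the LFA-1 integrin that free ISG15 binds on lymphocytes, had the largest decrease, with a mean of 11.01 ± 0.47 normalized counts in TKO retinae from 9 or 10 reads a library, against 49.0 ± 11.5 (SD, n = 3 each), which is -2.14 on the log2 scale (SE 0.30, edgeR adjusted p = 0.007). Its partner chain Itgb2 had -0.99 (edgeR adjusted p = 0.0273), and only the fit without TKO replicate 3 kept that call among those that left out 1 retina (the others had 0.0514 to 0.106). Skp2, an F-box protein that targets USP18 for degradation, had -1.15 (edgeR adjusted p = 0.0103, 0.0506 without DKO replicate 2). Trim21, an interferon-induced ubiquitin ligase, had -1.10 (edgeR adjusted p = 0.00733). The higher genes were Usp2 (1.31, edgeR adjusted p = 0.00691), Herc3, Herc4 and Arih1 (0.39, edgeR adjusted p = 0.0225), a ligase that works with UBE2L3. Arih1 was above 0.05 when replicate 1 or 2 of either group was left out (0.0732 to 0.092), and with total counts alone (0.0706). Usp5, Usp14, Usp16 and Usp13, proteases reported to react with ISG15 to some degree, lay between -0.17 and 0.21 and did not pass.

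Upstream of Isg15, 18 genes of the interferon signal were listed and 15 had enough counts to test. Of the 15, 5 were lower, 1 was higher and 9 did not pass, with a median of -0.19. Irf7, which amplifies interferon production, had a mean of 133 ± 21.6 normalized counts in TKO retinae against 319 ± 37.0 (SD, n = 3 each), which is -1.26 on the log2 scale (SE 0.16, edgeR adjusted p = 0.00621). Irf9, the DNA-binding part of the factor that acts on Isg15, had 405 ± 13.3 against 689 ± 69.3, which is -0.77 on the log2 scale (SE 0.10, edgeR adjusted p = 0.00677). Its partner Stat2 did not pass, at -0.08 (edgeR adjusted p = 0.628). The kinase Jak1, at 0.095, did not pass. Socs1, a feedback inhibitor of these kinases, had the lowest value of the list (-1.45) but few counts, and did not pass (edgeR adjusted p = 0.183). Ifnar2, the receptor chain that USP18 binds, had -0.72 (edgeR adjusted p = 0.0355), while Ifnar1 had -0.14 (0.192). Irf1 (-1.08) and Irf8 (-1.06) were lower and Irf3 (0.42) was higher (edgeR adjusted p = 0.0181, 0.0405 and 0.0305). With retinae left out one at a time, the calls of Irf7 and Irf9 held in each. Irf1 was above 0.05 without TKO replicate 2 (0.0648) and without DKO replicate 1 (0.0582). Ifnar2 and Irf8 passed only without TKO replicate 3, and Irf3 only without TKO replicate 3 or DKO replicate 3, with 0.0731 to 0.122 in the other fits. Irf3 was at 0.105 with total counts alone.

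Of the interferon genes, 3 were in the list. Ifnb1 had 1 count in DKO replicate 2 and 0 in the other libraries, Ifng had 1 count in DKO replicates 1 and 3, and Ifna4 had 0 in all 6, where a count of 0 allows up to 3 counts in a library. For these 3 genes no difference between the groups was detectable at this depth.

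Of 40 other interferon-stimulated genes, 37 were lower and 3 did not pass, with a median log2 fold change of -1.52. The changes ran from -3.35 for Ifi44 to -0.048 for Adar, and with 1 retina left out between 29 (without TKO replicate 2) and 37 of the 40 passed. Of the abundant genes, B2m, the light chain of MHC class I, had a mean of 980 ± 109 normalized counts in TKO retinae against 2845 ± 190 (SD, n = 3 each). Its log2 fold change was -1.54 (SE 0.10, edgeR adjusted p = 0.00193). Oasl2 (-1.78), Lgals3bp (-1.50) and Ifit2 (-0.86) were lower as well (edgeR adjusted p = 0.000362, 0.00378 and 0.0134). The changes of Isg15 and Usp18 were larger and those of Ube2l6, Uba7 and Herc6 smaller than the median of these 40 genes. Adar, Cmpk2 (-0.28) and Oas3 (-0.88) did not pass, and the value of Trim25 was between those of Adar and Cmpk2.

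**Figure D4:**
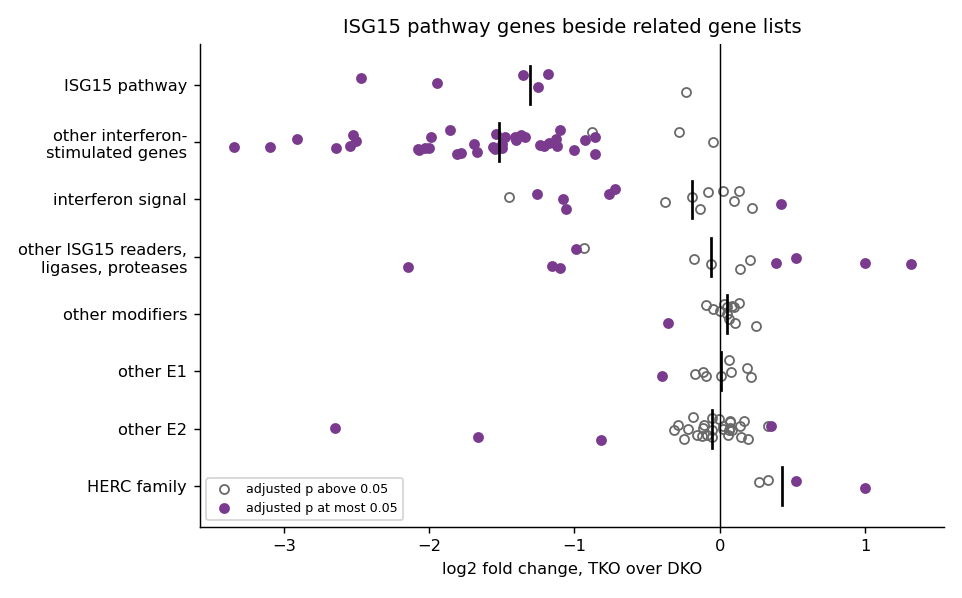
Log2 fold change of TKO over DKO for each tested gene of 8 lists, filled where the adjusted p from edgeR was at most 0.05, with a bar at each list's median. The medians of the ISG15 pathway genes (-1.30) and the other interferon-stimulated genes (-1.52) lie far to the left of those of the other modifiers (0.050), other E1 (0.011) and other E2 genes (-0.055).

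Genes whose pattern over the 6 libraries was most like that of Isg15 were found by Pearson's r of log2 CPM among 14975 other genes with a mean of at least 10 counts. This is a description over libraries of 2 groups, in which any gene that differs between the groups scores high. The first 5 were Slc43a3 (r = 0.999), Trim21 (0.998), 1700001L05Rik (0.998), Khdrbs1 (0.995) and 1700084C01Rik (0.995). Slc43a3, which encodes a purine nucleobase transporter, had 34.4, 25.3 and 39.3 normalized counts in TKO and 227, 176 and 160 in DKO retinae. Its log2 fold change was -2.51 (SE 0.23, edgeR adjusted p = 0.00419). Khdrbs1, an RNA-binding protein, followed the same order of retinae with a change of only -0.21, which did not pass (edgeR adjusted p = 0.0693).

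Among the ISG15 genes, Herc6 was number 17 in likeness (r = 0.990), Uba7 number 74 (0.981), Usp18 number 264 (0.961), Ube2l6 number 817 (0.924) and Trim25 number 3390 (0.721). With the group means removed, the deviations of Uba7 and Herc6 still followed those of Isg15 (r = 0.987 and 0.958 over 6 libraries), while Usp18 (0.604), Ube2l6 (0.17) and Trim25 (-0.09) did so less. The 6 points share their libraries and scaling, and with group means removed fewer than 6 values are free to vary. By the same measure the 5 genes most like Isg15 ran from 0.862 (Khdrbs1) to 0.982 (Slc43a3). Such values are thus not particular to the ISG15 genes, and their share among all genes was not computed. In TKO retinae Isg15, Uba7 and Herc6 had the same order, lowest in replicate 2 and highest in replicate 3, and Ube2l6 was lowest in replicate 1.

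Markers of microglia, resident immune cells that express interferon-stimulated genes, differed between the groups as well. Of 16 microglia markers 8 were lower in TKO retinae and none higher, none of the 16 was at 0, and the median log2 fold change was -1.09. Their summed level was 169, 219 and 308 CPM in TKO and 466, 555 and 360 in DKO replicates 1, 2 and 3. That of the 6 ISG15 genes was 64.4, 58.2 and 67.9 in TKO and 141, 121 and 123 in DKO. The order of retinae within a group was thus not the same for these sums, but Trim25, which did not pass, made up 34.3, 33.8 and 30.9 CPM of the TKO sums. Taken singly, Ube2l6 rose from TKO replicate 1 to 3 as the microglia sum did, while Isg15, Uba7, Herc6 and Usp18 were lowest in TKO replicate 2. In DKO retinae Isg15, Uba7 and Usp18 were lowest in replicate 3, as the microglia sum was, and Ube2l6 and Herc6 in replicate 2. Fcrls (-1.73) and Ptprc (-1.51) had the largest decreases, whereas P2ry12 (0.035) and Tmem119 (-0.35), both defining markers of resting microglia, did not pass. Siglech had the largest value (0.77) and was higher in each TKO than in each DKO retina, but did not pass (edgeR adjusted p = 0.1). Fewer markers passed when TKO replicate 1 (6), TKO replicate 2 (2), DKO replicate 1 (3) or DKO replicate 2 (2) was left out, and more when replicate 3 of either group was (11 each). The part of microglia in the ISG15 result was not tested.

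Markers of other cells also differed. All 10 markers of dividing cells were lower in TKO retinae (summed level 159 to 364 against 707 to 1326 CPM), and all 10 rod markers were higher (29680 to 59769 against 10141 to 19353). With TKO replicate 2, DKO replicate 1 or DKO replicate 2 left out, between 5 and 7 dividing-cell markers and between 3 and 6 rod markers passed. Of 8 gliosis markers 1 was lower, Lcn2, and 3 were without TKO replicate 3. Their median log2 fold change was -1.14, and -0.30 without DKO replicate 3, whose summed level of 2314 CPM stood apart from 923 and 1107 in the other DKO and 555 to 937 in the TKO retinae. Of 8 Muller glia markers 4 were higher, and 2 without TKO replicate 2 or without DKO replicate 2. Of 6 endothelial markers 1 was higher, of 7 markers of the retinal pigment epithelium 1 was higher, and of 3 tested T cell markers 1 was lower, with Cd3e, Cd3g and Cd2 under the minimum count. Each of these 3 calls was lost when replicate 1 or 2 of either group was left out. Of 8 lens markers 4 were higher, and 1 without DKO replicate 1 or without DKO replicate 2. The summed level of the lens markers was 274 CPM in TKO replicate 2, against 41.0 and 49.5 in the other TKO and 8.32 to 8.58 in the DKO retinae. Without TKO replicate 2, Isg15, Uba7, Ube2l6, Herc6 and Usp18 remained lower. The part of these differences in the ISG15 result was not tested.

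**Figure D5:**
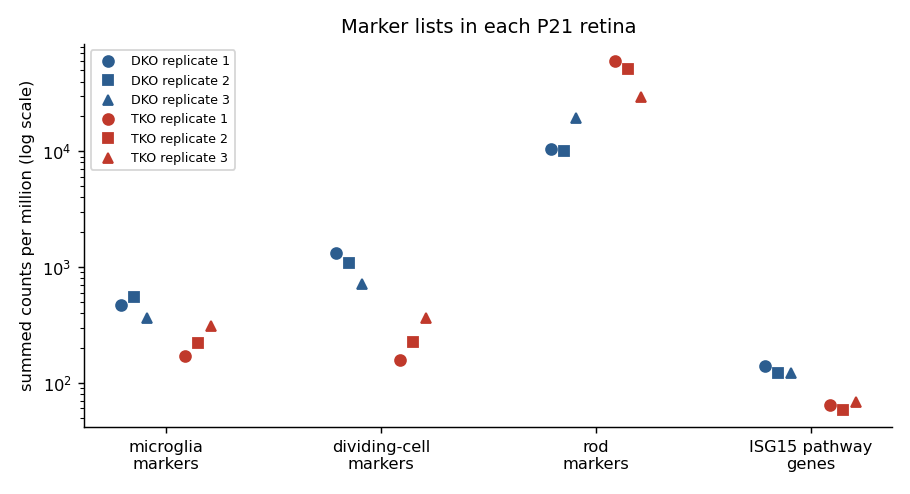
Summed CPM (log scale) of the microglia, dividing-cell and rod markers and of the 6 ISG15 genes in each library, with DKO in blue, TKO in red and a symbol shape for each replicate number. Microglia and dividing-cell markers are lower and rod markers higher in each TKO than in each DKO retina, and the 6 ISG15 genes together run from 58.2 to 67.9 in TKO and 121 to 141 in DKO.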

How the data were processed

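RNA-seq libraries of 3 TKO and 3 DKO retinae were compared, with groups and replicate numbers from the sample titles. The authors deposited raw counts of read pairs per gene symbol. According to the paper they aligned to GRCm38 with STAR and counted with HTSeq, allowing reads with more than 1 alignment, whereas the submitters' processing notes name TopHat2, featureCounts and DESeq2. Genes with near-identical copies are therefore less certain.

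Groups were compared by the quasi-likelihood F test of edgeR 4.0.16 (R 4.3.3), with TMM scaling, no covariate and Benjamini-Hochberg adjustment over 16904 genes with a count sum of at least 10. SE was obtained from the size of the log2 fold change over the root of its F statistic. Normalized counts are counts divided by the relative TMM-scaled library size. The labels do not say that retinae came from separate animals. The edgeR p-values set the group difference against the spread within groups, and they cover these 6 samples only. No replicates were duplicates, since their counts differed beyond sampling noise (8.61 to 25.3 for chi-square over its degrees of freedom). Limits for counts of 0 cover counting error only. The procedure was tested on simulated data, with the same dispersion for every gene and changes planted only in genes with higher counts. That test therefore does not show how the procedure behaves at the spread found between these retinae. Coordinates and exon lengths came from GENCODE M21 (GRCm38), which held 94.5% of the 24062 symbols and all 6 members, and promoters from RefSeq.

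The members were named at the outset, and gene lists were hand-written. Both were chosen with earlier results of these data known. The symbol Arih1, misspelled in its list at first, was corrected afterwards. Named genes were the 6 members, Hells, the paralogs Ube2l3, Uba1, Herc3 and Herc4, the 5 genes most like Isg15 and, of each gene list, those with the smallest and largest change and up to 4 others with the largest mean count. Other genes named from a list, to account for its calls or for markers, were chosen after their values were seen. Some genes that this rule takes are not reported here. Alternatives comprised DESeq2 1.42.0, 4 other scalings, 2 other filters, robust dispersions, the replicate block, a Y-linked covariate and leaving out each retina. List counts with 1 retina left out or with total counts alone were added after seeing the data.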

Additional observations from a re-analysis of the deposited data

How the results depend on the processing

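The direction of the 6 genes was kept under each alternative run. With each of the 6 retinae left out in turn, the log2 fold change ran from -2.61 to -2.28 for Isg15, -2.22 to -1.77 for Usp18, -1.62 to -1.15 for Ube2l6, -1.43 to -1.07 for Uba7 and -1.31 to -1.02 for Herc6, with 5 genes passing in each fit. Trim25 ran from -0.31 to -0.18 and had an adjusted p between 0.129 and 0.361 from edgeR. With total counts alone Trim25 passed (-0.39, adjusted p = 0.0334 from edgeR), and it did not with DESeq2 or the other scalings. The 7 ratios within libraries moved by less than the spread between retinae with a pseudocount of 0.5.

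With the replicate number as a block, only 1 of the genes, Isg15, passed (adjusted p = 0.0356 from edgeR). The block left the log2 fold changes of Uba7 at -1.26, Ube2l6 at -1.39, Herc6 at -1.19 and Usp18 at -1.94, with adjusted p-values from 0.0549 to 0.0566 from edgeR. It lowered the number of all genes called from 1074 to 90. Retinae that share a number did not deviate together (correlations of 0.073, -0.04 and -0.16 once group means were removed), and 1 of 6 libraries was most like its own number, so the number is not read as a pairing.

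Usp18 and Isg15 in TKO retinae rest on 25 to 49 counts a library, which limits how finely their changes can be compared.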
